A study of Mus musculus with 62 samples.

Results

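The slow-twitch sarcomere genes are the 9 genes Myh7, Myh7b, Myl2, Myl3, Tnnc1, Tnni1, Tnnt1, Tpm3 and Myoz2. They were taken by symbol and are 9 of the 29239 symbols in the table of chow-fed muscles, 9 of 21885 in the table of stressed muscles, 8 of 20918 in the table of virus-injected muscles and 9 of 17896 in the cell line table. Tpm3 in the virus-injected muscles was not analysed here. The study asked what the carbohydrate response element binding protein ChREBP, a glucose-sensing transcription factor encoded by Mlxipl, does in muscle, and measured bulk mRNA in 62 mouse libraries. In ChMKO mice an Mck-cre transgene, which is also active in heart, removed the floxed exon 8 of ChREBP in muscle, and the F/F controls were ChREBP-flox littermates without Cre.

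In the chow-fed experiment, gastrocnemius (GC) and soleus (SOL) were taken from 5 F/F and 5 ChMKO mice, as read from mouse numbers shared between the muscles. In the stress experiment, GC was taken from 4 F/F and 4 ChMKO mice in each of 3 conditions, which were Norm (normoxia and no fructose diet), Hypo (2 weeks in a chamber set to an altitude of 5500 m) and HFrD (a diet with 68% of its calories from fructose for 3 months). In the AAV experiment, GC of C57BL/6J mice carrying the normal Mlxipl gene was injected with an AAV9 virus encoding GFP (AAV-CON) or ChREBP (AAV-ChREBP) under a CMV promoter and collected 14 days later, with 5 libraries each. In the cell line experiment, C2C12 mouse myoblasts were transduced with an empty vector or a ChREBP vector, selected with puromycin and differentiated to day 7, with 4 cultures each. Mice are given an age of 8 to 10 weeks in the study's methods, and the age at the end of 3 months of diet is not given.

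A muscle fibre contracts when myosin heads pull on actin. In slow-twitch fibres, which work for long periods without tiring, the motor is the heavy chain encoded by Myh7, each head carries a regulatory light chain (Myl2) and an essential light chain (Myl3), and calcium switches the thin filament on through the slow troponins C, I and T (Tnnc1, Tnni1 and Tnnt1) and tropomyosin (Tpm3). Mouse soleus is rich in slow fibres, while gastrocnemius is mostly fast and holds its slow fibres in a deep region near the bone. Myh7b encodes a further slow-type myosin heavy chain of low abundance, and Myoz2 encodes calsarcin-1, a Z-disc protein that binds calcineurin. All members but Tnni1 and Tnnt1 are also made in heart.

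On mouse build GRCm38, which the table of chow-fed muscles uses, the motor gene Myh7 lies on the minus strand at chr14:54970684-54994549 and Myh7b on the plus strand at chr2:155611243-155634307. The light chain genes are Myl2 at chr5:122100904-122113398 and Myl3 at chr9:110763681-110769794, both on the plus strand. The troponin genes are Tnnc1 at chr14:31208312-31211711 and Tnni1 at chr1:135783033-135810989, both on the plus strand, and Tnnt1 on the minus strand at chr7:4504569-4516000. Tpm3 lies at chr3:90072651-90100902 on the plus strand and Myoz2 at chr3:123006206-123035003 on the minus strand. The counting covered whole genes, so Tpm3 values also hold the tropomyosin forms that non-muscle cells make. The library kit does not mark strand, so reads of Myh7 and of its antisense transcript Mhrt cannot be told apart where they overlap, and the near-identical Myh6 next to Myh7 can share reads with it.

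The RefSeq promoter table (GRCm38.p6) held 13 start sites for the 9 members. Both Myl2 start sites, at 122092724 and 122093189, lie upstream of the Myl2 interval given above, so its windows are not next to that interval. Upstream windows of 250 bases for 5 members are shown 5′ to 3′. Those of Myh7, Tnnc1 and Tnnt1 are the slow motor and 2 troponins that followed it from library to library at r of 0.96 or more in every set of GC libraries. Tnni1 followed Myh7 as closely, but its windows are not shown. Those of Myl3 and Myoz2 were picked because they hold muscle motifs and belong to members that followed Myh7 less closely in chow-fed GC. Every window of the members with an MCAT, CArG or MEF2 match is thus among those shown, and the windows left out, such as that of the Myh7 start site 54994549, held none. Capitals mark matches to MCAT (CATTCC on either strand), the CArG box or the MEF2 motif. They are chr14:54994627-54994876 (minus strand) for Myh7, chr14:31208062-31208311 (plus) for Tnnc1, chr7:4515976-4516225 (minus) for Tnnt1, chr9:110763428-110763677 (plus) for Myl3 and chr3:123034988-123035237 (minus) for Myoz2.
Myh7: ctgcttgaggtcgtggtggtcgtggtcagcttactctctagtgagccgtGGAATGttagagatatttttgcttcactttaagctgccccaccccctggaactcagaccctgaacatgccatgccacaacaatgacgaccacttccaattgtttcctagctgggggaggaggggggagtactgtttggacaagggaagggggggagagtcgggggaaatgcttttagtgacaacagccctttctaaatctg
Tnnc1: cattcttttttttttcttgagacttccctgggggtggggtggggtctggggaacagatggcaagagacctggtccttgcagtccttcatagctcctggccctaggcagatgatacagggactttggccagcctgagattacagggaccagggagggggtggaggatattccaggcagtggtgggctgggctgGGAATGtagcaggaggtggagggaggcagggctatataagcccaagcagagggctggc
Tnnt1: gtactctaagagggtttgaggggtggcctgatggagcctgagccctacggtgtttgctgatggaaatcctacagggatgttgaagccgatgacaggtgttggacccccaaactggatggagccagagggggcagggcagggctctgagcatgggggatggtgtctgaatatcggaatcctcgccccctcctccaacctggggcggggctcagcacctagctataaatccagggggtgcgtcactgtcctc
Myl3: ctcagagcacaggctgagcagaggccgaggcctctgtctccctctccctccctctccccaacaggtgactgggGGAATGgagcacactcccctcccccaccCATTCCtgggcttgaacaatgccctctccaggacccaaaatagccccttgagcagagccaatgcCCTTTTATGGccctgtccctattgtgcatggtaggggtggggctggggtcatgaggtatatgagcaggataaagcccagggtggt
Myoz2: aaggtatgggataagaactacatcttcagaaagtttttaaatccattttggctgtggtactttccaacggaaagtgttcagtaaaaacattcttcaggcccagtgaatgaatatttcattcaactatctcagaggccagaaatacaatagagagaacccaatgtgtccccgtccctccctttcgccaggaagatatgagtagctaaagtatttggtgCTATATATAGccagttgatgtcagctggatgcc

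Read on both strands, MCAT was found in 3 of the members' 13 windows, against 12.6% of the 32817 distinct windows in the table. It lies 201 bases before one of the Myh7 start sites, 58 bases before that of Tnnc1, and 149 and 177 bases before that of Myl3. The CArG box, the serum response factor motif, was found 85 bases before the Myl3 start site and in 1.47% of all windows, and the MEF2 motif 33 bases before the Myoz2 start site and in 2.92% of all windows. The E-box CANNTG, the core bound by myogenic and other basic helix-loop-helix factors, was present in all 13 windows of the members and in 66.2% of all windows. Its form CACGTG, which is also a CANNTG, was found for Myh7b alone among the members, 79 bases before the start site, and in 6.02% of all windows. The spaced pair CANNTGNNNNNCANNTG was found in 0 of the 13 windows and in 0.64% of all windows. Carbohydrate response elements whose E-boxes depart from CANNTG cannot match this pattern, and they were not searched. A match describes letters in these windows only.

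Expression is given as FPKM, a fragment count scaled to gene length and to the number of mapped fragments, in the values the authors deposited. Depth was 14473170 to 23460515 reads per library in the stress experiment, as recovered from the values, and was not recovered exactly elsewhere. Mlxipl gave 12.5 to 18.5 FPKM in GC of ChMKO mice against 20.4 to 30.3 in F/F (limma, adjusted p = 0.413). In soleus the genotypes overlapped, at 30.0 to 46.1 in ChMKO and 43.8 to 64.1 in F/F (limma, adjusted p = 0.384), and in Norm it gave 3.15 to 3.51 against 7.76 to 10.01. It gave 52.9 to 101 FPKM after AAV-ChREBP against 10.3 to 12.3 after AAV-CON, and 12.8 to 13.8 against 0 to 0.02 in C2C12. In the stress experiment the 24 libraries fell on 2 sides of the first principal component, which held 62.6% of the variance over 10620 genes. Mice of this experiment are written as m and their number. Side A held all 8 HFrD libraries, Hypo F/F mice m360 and m361 and Norm F/F m397 and m401, and side B held the other 12, which include all ChMKO libraries of Norm and Hypo. The sources used here give no batch that would match the sides. With the 6 groups in the fit, 54.9% of genes and 0 of 9 members differed between the sides (Myh7, log2 difference 0.04 ± 0.76 SE). Only the F/F groups of Norm and Hypo hold both sides and the members vary widely there, so the members are not shown to be free of this difference. Where a side held libraries of both groups compared, the result is also given within that side.

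In chow-fed GC the members were low and varied widely from mouse to mouse within a genotype. Myh7, the slow motor, was 0.202, 37.6, 1.74, 18.8 and 16.5 FPKM in F/F mice 57, 58, 69, 70 and 71, and 6.80, 2.86, 0.227, 36.2 and 1.66 in ChMKO mice 59, 60, 61, 72 and 74. Mouse 58 was the highest F/F library and mouse 72 the highest ChMKO library, and the genotypes overlapped fully. The highest of the 10 libraries was 186 times the lowest.

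Tnnc1, the calcium-binding troponin subunit, repeated this order. It was 0.413, 48.5, 3.51, 25.8 and 19.8 FPKM in the F/F mice and 10.1, 4.13, 1.45, 40.1 and 1.73 in the ChMKO mice, a range of 118 times. Tnni1, the inhibitory subunit, was 0.422, 9.85, 1.05, 5.83 and 4.07 FPKM in F/F and 1.85, 0.824, 0.475, 9.49 and 0.922 in ChMKO. Tnnt1, the tropomyosin-binding subunit, was 2.53, 56.2, 4.07, 21.6 and 17.0 FPKM in F/F and 7.97, 6.93, 3.63, 30.5 and 3.94 in ChMKO. For each of these troponins mouse 57 was lowest and mouse 58 highest, as for Myh7, and the range was 23.3 times for Tnni1 and 22.3 times for Tnnt1.

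The light chains and Myoz2 started from a higher floor and spanned less. Myl3 was 30.0, 371, 29.7, 56.5 and 66.5 FPKM in F/F and 29.0, 48.1, 31.0, 182 and 31.4 in ChMKO, a range of 12.8 times. Myl2 was 27.9, 192, 25.5, 59.4 and 23.7 FPKM in F/F and 29.3, 21.9, 51.5, 58.05 and 39.05 in ChMKO, a range of 8.78 times. Mouse 58 stood above the other F/F mice in both light chains, while in ChMKO mouse 72 stood apart in Myl3 and was close to mouse 61 in Myl2. Myoz2 was 29.3, 134, 18.7, 56.8 and 31.4 FPKM in F/F and 33.0, 27.2, 48.1, 75.6 and 32.5 in ChMKO. Tpm3 spanned least, 2.87 to 11.2 FPKM or 3.92 times, with its highest values in mice 72 and 58. Myh7b stayed between 0.107 and 1.04 FPKM, with 1.04 in mouse 70. In bulk tissue, fewer slow fibres in the piece taken and less of these mRNAs per fibre cannot be told apart.

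**Figure D1:**
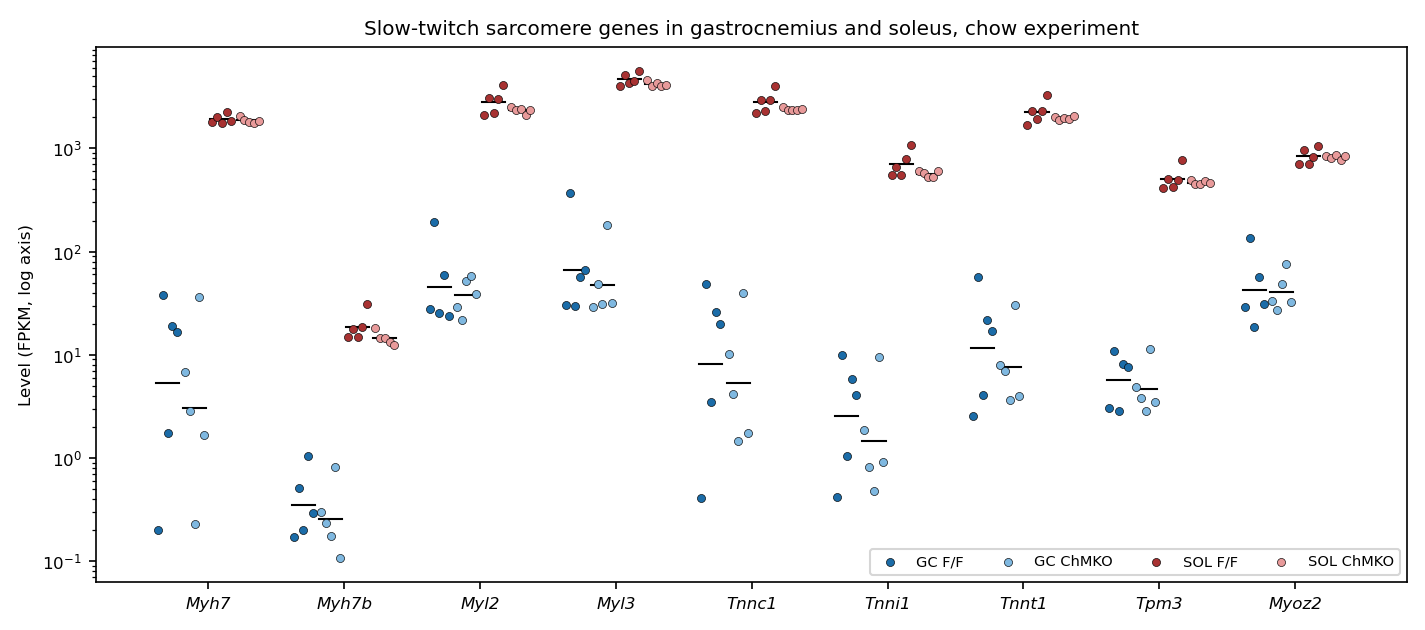
Expression of the 9 members in chow-fed muscles, in FPKM on a log axis, with 1 point per library for GC F/F, GC ChMKO, SOL F/F and SOL ChMKO (5 mice each) and a bar at the geometric mean. The GC points of Myh7 spread from 0.202 to 37.6 FPKM, while all SOL points lie between 1757 and 2267 FPKM.

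In soleus the same genes were abundant and close between mice. Myh7 was 1808, 2028, 1757, 2267 and 1852 FPKM in F/F mice 57, 58, 69, 70 and 71, and 2068, 1903, 1791, 1766 and 1833 in ChMKO mice 59, 60, 61, 72 and 74. The lowest soleus value was 46.8 times the highest GC value in F/F and 48.7 times in ChMKO, so the muscles did not overlap. Tnnc1 was 2193, 2946, 2311, 2936 and 3997 FPKM in F/F soleus and 2503, 2344, 2333, 2374 and 2418 in the ChMKO mice. Mouse 71 was the highest of the F/F soleus libraries for 8 of the members, and the exception was Myh7, which was highest in mouse 70.

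The order of levels in F/F soleus began with Myl3 at 4732 ± 655 FPKM (SD, n = 5), followed by Myl2 at 2917 ± 834 and Tnnc1 at 2877 ± 716. Myl2 exceeded Tnnc1 in only 3 of 5 libraries, so these neighbours did not differ beyond their spread. Tnnt1 at 2299 ± 599 FPKM exceeded Myh7 at 1943 ± 208 in 4 of 5 libraries. Myoz2 at 853 ± 159 FPKM exceeded Tnni1 at 725 ± 218 in 4 of 5. Tpm3 followed at 525 ± 148 FPKM and Myh7b was last at 19.3 ± 6.70, and the other neighbours kept their order in 5 of 5 libraries. In ChMKO soleus the order was the same apart from Tnnc1 (2395 ± 68.8 FPKM), which exceeded Myl2 (2354 ± 150) in 3 of 5 libraries, and Tnnt1 (1966 ± 65.5) exceeded Myh7 (1872 ± 121) in 3 of 5.

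All 9 members were higher in SOL than in GC in both genotypes at an adjusted p under 0.05 (limma on log2(FPKM + 1), Benjamini-Hochberg adjustment over all genes). Their muscles did not overlap for any member. Of all genes tested, 50.4% were called in F/F and 57.9% in ChMKO, and 35.9% and 43.0% had muscles that did not overlap. The log2 difference of Myh7 was 7.83 ± 0.81 (SE, adjusted p = 2.54e-05) in F/F and 8.50 ± 0.70 (adjusted p = 1.57e-06) in ChMKO. Tnnc1 gave 7.97 and 8.44, Tnni1 7.44 and 7.69, and Tnnt1 7.40 and 7.81 in F/F and ChMKO. Tpm3 gave 6.23 and 6.36, Myl3 6.13 and 6.42, and Myl2 5.92 and 5.93. Myoz2 differed least among the well-expressed members, by 4.28 ± 0.42 and 4.32, and Myh7b gave 3.80 and 3.56. The median member differed by 6.23 in F/F and 6.42 in ChMKO, against 0.18 and 0.15 over all genes tested. Adding 1 FPKM before taking logs shrinks the differences of members that are low in GC.

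As a share of the mean soleus level of the same genotype, each GC library held little slow sarcomere mRNA, and the share differed between members. Myh7 in F/F GC ran from 0.0104% through a median of 0.852% to 1.93% of soleus, and Tnnc1 from 0.0143% through 0.688% to 1.69%. Tnni1 had a median of 0.561%, Tnnt1 of 0.739%, Tpm3 of 1.46%, Myl2 of 0.956%, Myl3 of 1.19% and Myh7b of 1.502%. Myoz2 had the highest share, from 2.197% through 3.68% to 15.7%. In ChMKO the medians were 0.153% for Myh7, 0.173% for Tnnc1, 0.163% for Tnni1 and 0.352% for Tnnt1, and 4.01% for Myoz2. In mouse 57, the F/F mouse with least Myh7, GC held 0.0104% of the soleus level of Myh7 and 0.585% of that of Tpm3. The members thus did not share 1 common percentage within a library.

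**Figure D2:**
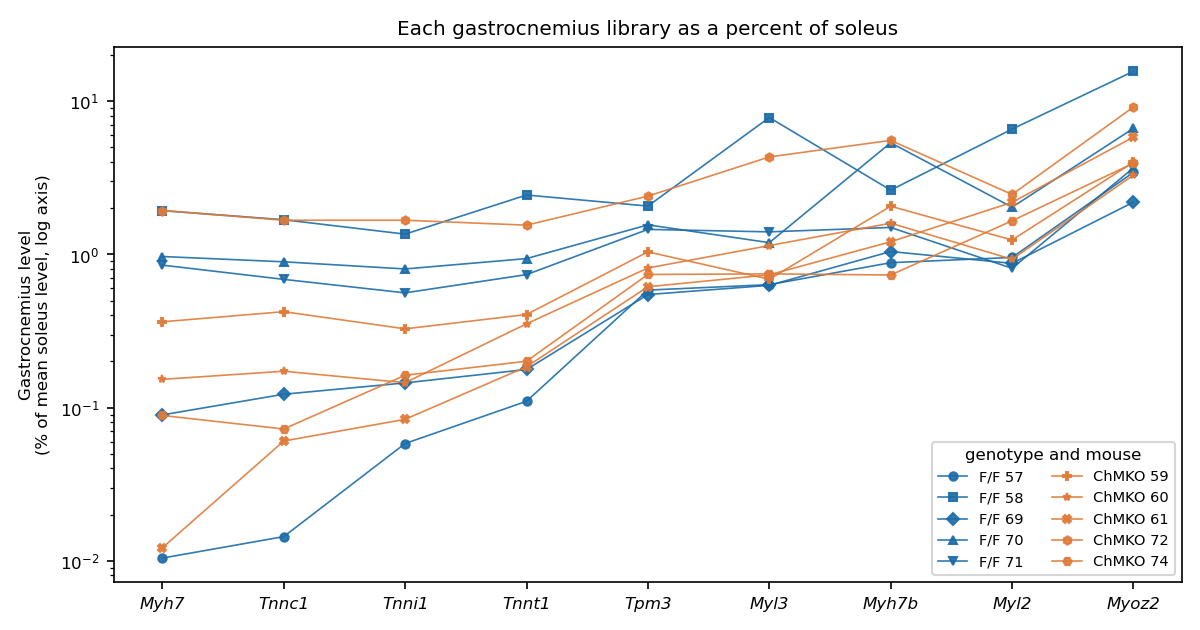
Level of each member in each of the 10 chow-fed GC libraries as a percentage of its mean level in soleus of the same genotype, on a log axis, with 1 line per mouse. Lines fan out at Myh7, from 0.0104% to 1.94%, and come closer at Myoz2, from 2.197% to 15.7%.

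Other slow-fibre genes, outside the sarcomere list, were also higher in soleus. All 16 of the 16 partner genes (slow-fibre genes of calcium handling, the Z-disc, thin filament and energy supply) were called higher in both genotypes, led by lowest p by Myh6, encoding the alpha heavy chain (5.02 in F/F), and Sln, the calcium pump regulator sarcolipin (5.64). Of 16 fast counterparts, 13 were called lower in each genotype, with Myoz1, the fast-fibre calsarcin, at -2.06 and Casq1, the fast calsequestrin, at -1.74 in F/F. The exceptions, called higher in soleus in both genotypes, were Myh2, the fast oxidative heavy chain (2.18 in F/F and 2.37 in ChMKO), and the beta tropomyosin gene Tpm2 (1.18 and 1.27), joined in ChMKO by Myh1 at 0.34. Of 16 regulators tested, 6 were called higher and 3 lower in F/F, a share near the 50.4% of all genes called there. In ChMKO 10 of 16 were called higher and 3 lower, where 57.9% of all genes were called. The higher ones in F/F included Vgll2, a TEAD cofactor, at 2.33 and the nuclear receptor Esrrb at 2.23. The 3 lower ones in F/F were Sox6, a repressor of slow-fibre genes, at -1.05, Tbx15, a T-box factor of glycolytic fibres, at -0.87, and Eya1, a transcription cofactor of fast-fibre genes, at -0.64. All 5 endothelial and all 5 blood markers were also called higher in soleus in both genotypes. All 6 adipocyte markers were higher there too (median 1.36 in F/F and 0.64 in ChMKO), 2 of them called in F/F and 3 in ChMKO. The part of these cell types in the members' differences was not tested. The cardiac chamber markers Nppa, Nppb, Myl7 and Mybpc3 were under 0.5 FPKM in every chow-fed group, while Tnni3 reached 0.5 FPKM in F/F libraries of both muscles. Of 4 cardiac markers tested, 2 (Myh6 among them) were called higher in soleus and 1 lower in each genotype.

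ChREBP loss was the study's own question, and no member was called between genotypes in chow-fed muscle. In GC 0 of 8 members tested were called, against 0.0236% of all genes, and Myh7 differed by -0.72 ± 1.07 (SE, limma, unadjusted p = 0.514, adjusted p = 0.9996). In SOL 0 of 9 were called, against 0.0225% of genes, and the interval was narrower, with Myh7 at -0.05 ± 0.09 (limma, unadjusted p = 0.586). The lowest p in SOL was that of Myh7b, at -0.34 ± 0.18 (limma, unadjusted p = 0.0811, adjusted p = 0.542). Over all genes, 589 in GC and 1300 in SOL had an unadjusted p under 0.05, and no member was among them. No member was called for a gap between muscles that differed by genotype (0 of 9, against 0.00759% of genes; Myh7 interaction 0.67 ± 1.12, limma, unadjusted p = 0.556).

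The members varied together from one GC library to the next. Within each experiment or condition, Myh7 was correlated with each other member on log2(FPKM + 1) over both genotypes, giving 39 relations. By Pearson's r 37 of 39 had a Benjamini-Hochberg adjusted permutation p under 0.05, and by Spearman's rho 34, with a median r of 0.96. All members of a library share its depth and composition, so these are relations within 1 RNA sample. How large a share of all genes would pass beside Myh7 was not computed. With the group means removed 37 of 39 remained under 0.05, and without the 2 libraries farthest from the median of Myh7 in each stratum 26 did, with a median r of 0.90.

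In the 10 chow-fed GC libraries Tnnc1 followed Myh7 most closely (r = 0.99, rho = 1, adjusted permutation p = 6.5e-05 for both). The smallest p that 100000 resamples can give, 1e-05, was reached for Tnnc1 and Tnnt1. Tnni1 gave r = 0.98, Tpm3 0.98 and Tnnt1 0.97. The light chain Myl3 gave 0.82, Myh7b 0.79 and Myoz2 0.67 (adjusted permutation p = 0.0317). Myl2 gave 0.54 with rho = 0.47 and did not pass (adjusted permutation p = 0.101). Without the 2 farthest libraries Myl2 gave 0.04 and Myoz2 0.28, so those relations rested on such libraries, and 6 of the 8 relations passed. Setting Myh7, Tnnc1, Tnni1 and Tnnt1 in one group and Myl2, Myl3 and Myoz2 in another, a division chosen after the values were seen, the median pairwise r was 0.97 within the first, 0.85 within the second and 0.73 between them.

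In the 10 AAV-injected GC libraries the members were tighter. Tnnc1 and Tnnt1 gave r = 0.99 with Myh7, Tnni1 0.98, Myl2 0.93, Myoz2 0.91 and Myl3 0.90, while Myh7b gave 0.68. Here the same division gave 0.99, 0.99 and 0.91, and Myl2 followed Myh7 at 0.93 where it gave 0.54 in chow-fed GC. In the same order the medians were 0.97, 0.92 and 0.90 in Norm, 0.965, 0.955 and 0.954 in Hypo, and 0.98, 0.87 and 0.94 in HFrD. In HFrD the second group was thus less close within itself than to the first, and in Hypo the values were nearly equal. In Norm, Tnnt1 and Tnnc1 gave 0.98, Tnni1 0.97, Myl2 0.90, Myl3 0.89, Tpm3 0.89 and Myoz2 0.79. Myh7b alone had a negative value in Norm, r = -0.55 and rho = -0.50 (exact permutation test over 8 libraries, adjusted p = 0.160), where its level was 0.104 to 0.464 FPKM. In Hypo r ran from 0.91 for Myh7b to 0.997 for Tnnt1, and all 8 relations passed also without the 2 farthest libraries. Within the 6 side B libraries of each condition, 7 of 8 relations passed in Norm and 8 of 8 in Hypo. In HFrD r ran from 0.82 for Myoz2 to 0.99 for Tnnt1, but 2 of 8 passed without the 2 farthest libraries and 5 of 8 without ChMKO library m309 alone.

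**Figure D3:**
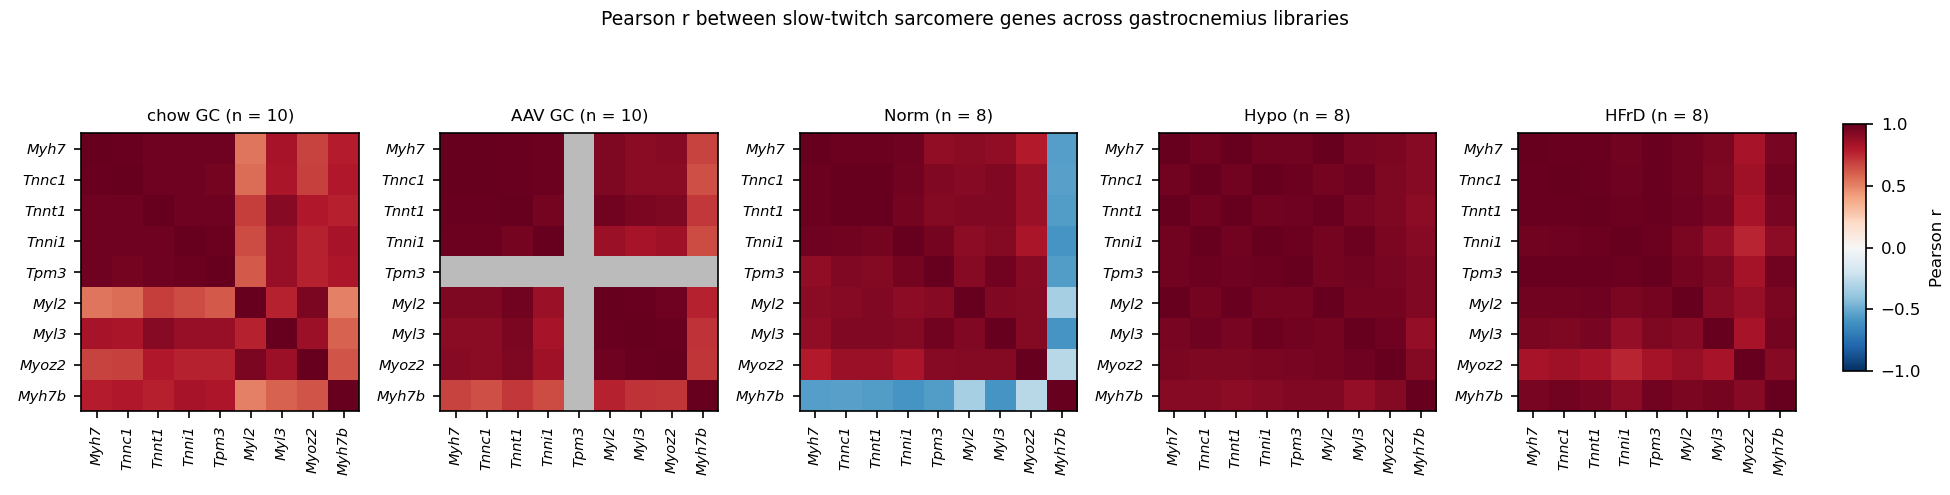
Pearson r between each pair of members on log2(FPKM + 1) in 5 sets of GC libraries (chow-fed n = 10, AAV-injected n = 10, Norm, Hypo and HFrD n = 8 each), where grey marks Tpm3 in the AAV set. The tightest pairs reach 0.990 (Myh7 and Tnnc1, chow-fed), 0.994 (the same pair, AAV), 0.992 (Tnnc1 and Tnnt1, Norm), 0.997 (Myh7 and Tnnt1, Hypo) and 0.992 (Tnnt1 and Tpm3, HFrD), and Myh7b gives the lowest values in Norm.

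For 9535 genes, the lowest of 3 correlations (chow-fed GC, stress GC, AAV GC) with the members' mean log2(FPKM + 1) was taken, after group means were removed. By this value the non-member most like the members was Atp2a2, which encodes the slow-fibre calcium pump SERCA2. Its r was 0.967 in chow-fed GC, 0.979 in the stress libraries and 0.969 in the AAV libraries. Zdhhc23, a palmitoyltransferase, followed with a lowest r of 0.843, then Idh2, the mitochondrial isocitrate dehydrogenase, with 0.827, Fndc5, the irisin precursor, with 0.816, and Casq2, the slow calsequestrin, with 0.812. Ankrd2, a titin-associated stretch-response gene, ranked 16 with 0.761 and Myh2, the fast oxidative heavy chain, ranked 18 with 0.747.

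Hypoxia was compared with Norm to see how GC adapts to low oxygen. In F/F, Myh7 was 0.930, 12.3, 5.14 and 3.16 FPKM in Norm m368, m369, m397 and m401, and 53.7, 9.13, 25.5 and 22.7 in Hypo m341, m348, m360 and m361. Hypo m348 lay below Norm m369, so the groups overlapped, and the mean was 27.7 ± 18.7 against 5.38 ± 4.92 FPKM (SD, n = 4). Tnni1 was 0.572, 8.53, 2.61 and 1.74 FPKM in Norm and 50.2, 7.18, 13.5 and 12.98 in Hypo. Tnnc1 was 5.62, 53.4, 15.5 and 11.4 FPKM in Norm and 232, 41.5, 67.4 and 66.0 in Hypo. Tnnt1 was 8.50, 49.0, 16.1 and 13.3 FPKM in Norm and 180, 34.1, 84.4 and 69.5 in Hypo. In each troponin Norm m369 was again the high Norm library and Hypo m348 the low Hypo library, and the groups overlapped through these.

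No member passed an adjusted p of 0.05 in F/F, where 0 of 10738 genes did (0%, limma), while 412 genes had an unadjusted p under 0.05. Myh7 gave a log2 difference of 2.26 ± 0.64 (SE, limma, unadjusted p = 0.00657), Tnnc1 2.32 ± 0.69, Tnni1 2.29 ± 0.65, Tnnt1 2.09 ± 0.59 and Tpm3 1.21 ± 0.43. These 5 of 8 members met the study's own criterion, an unadjusted p under 0.05 with an absolute log2 difference of at least 1, which 0.168% of all genes met. The study applied that criterion with another test (DESeq2), so counts here, from limma on log2(FPKM + 1), are not those of the study. Myl2 gave 1.16 ± 0.54, Myl3 0.84 ± 0.65 and Myoz2 0.68 ± 0.44, and none of these met it. The median member differed by 1.65 against -0.06 over all genes. Myh7b was below the filter on low values, at 0.656 ± 0.255 FPKM against 0.291 ± 0.0594.

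Within side A, the 2 Hypo libraries m360 and m361 were compared with the 2 Norm libraries m397 and m401, a comparison added after the data were seen. Myh7 was 25.5 and 22.7 against 5.14 and 3.16 FPKM, and Tnnt1 84.4 and 69.5 against 16.1 and 13.3. All 8 members tested were called higher there, against 0.748% of all genes. Myh7 rose by 2.31 ± 0.18 (adjusted p = 0.0123), Tnnt1 by 2.31 (adjusted p = 0.00460), Tnnc1 by 2.24 and Tnni1 by 2.18. Myl2 rose by 1.48, Myl3 by 1.41, Tpm3 by 1.36 and Myoz2 by 1.07. Within side B, which sets Hypo m341 and m348 against Norm m368 and m369, 0 of 8 were called and 0% of all genes. There Myh7 gave 2.22 ± 1.13, Tnnc1 2.39, Tnni1 2.40 and Tnnt1 1.87, of like size with a wider error, while Myl3 gave 0.28 and Myoz2 0.29.

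In ChMKO, Myh7 was 0.459, 7.90, 0.289 and 11.5 FPKM in Norm m370, m374, m375 and m380 and 19.9, 6.36, 38.6 and 68.3 in Hypo m332, m333, m340 and m345. Norm m374 and m380 lay above the lowest Hypo library, m333, so the groups overlapped. Tnnc1 was 5.12, 44.5, 1.89 and 59.005 FPKM in Norm and 73.2, 35.1, 146 and 248 in Hypo. Tnni1 was 0.580, 5.63, 0.691 and 9.69 FPKM in Norm and 15.9, 5.74, 36.7 and 50.5 in Hypo. Here too Norm m374 and m380 carried the Norm mean and Hypo m333 was lowest. No member was called (0 of 8, against 0.890% of all genes), and 6 of 8 met the study's criterion against 1.00% of genes. That count was 3 without Hypo m345 and 3 to 8 as each library was left out in turn. Myh7 gave 2.75 ± 0.84 (limma, adjusted p = 0.165), Tnni1 2.55 ± 0.73 (adjusted p = 0.146), Tnnc1 2.75 ± 0.94, Tnnt1 2.46 ± 0.82, Myl2 1.43 ± 0.59 and Tpm3 1.14 ± 0.39. All 8 of these libraries lie on side B. With side as a term over all 6 groups, which was added after the data were seen and pools their spread, 4 members were called against 6.99% of genes (Myh7 adjusted p = 0.0331, Tnnc1 0.0464, Tnni1 0.0312, Tnnt1 0.0453).

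Among the partner genes in hypoxia, 0 of 14 were called in F/F, where Csrp3, the muscle LIM protein, gave 1.67 (limma, unadjusted p = 0.0103) and Casq2 0.91. In ChMKO 3 of 14 rose, namely Ankrd2 by 1.92 (adjusted p = 0.0267), Casq2 by 1.44 (adjusted p = 0.0415) and Csrp3 by 2.02 (adjusted p = 0.0472). No regulator and no fast counterpart was called in either genotype, and the fast light chain Mylpf gave 0.43 in ChMKO. Markers of other cells lay higher or lower beside the members, none of them called. In ChMKO 5 of 5 blood markers were higher in Hypo (median log2 difference 0.90) and 9 of 9 fibroblast markers lower (median -0.45). Their summed levels were 316 to 840 FPKM in Hypo and 217 to 407 in Norm for blood, and 261 to 481 and 449 to 814 for fibroblast markers. In F/F 5 of 5 blood markers were higher (median 0.72) and 8 of 9 fibroblast markers lower (median -0.24). All 6 adipocyte markers (median -0.56, 1 past the study's criterion), all 4 Schwann cell and nerve markers tested (median -0.54) and all 3 leukocyte markers tested (median -0.28) were lower there too. In ChMKO the 4 nerve markers and 4 of 5 adipocyte markers were higher (medians 0.33 and 0.35). The summed cardiac markers, nearly all of it cardiac actin Actc1, were 304 to 4099 FPKM in Hypo and 160 to 328 in Norm in ChMKO, and their part and that of the other cell types in the differences was not tested. No member was called for a response to hypoxia that differed by genotype (0 of 8, and 0% of all genes; Myh7 interaction 0.48 ± 1.19, limma, unadjusted p = 0.691).

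**Figure D4:**
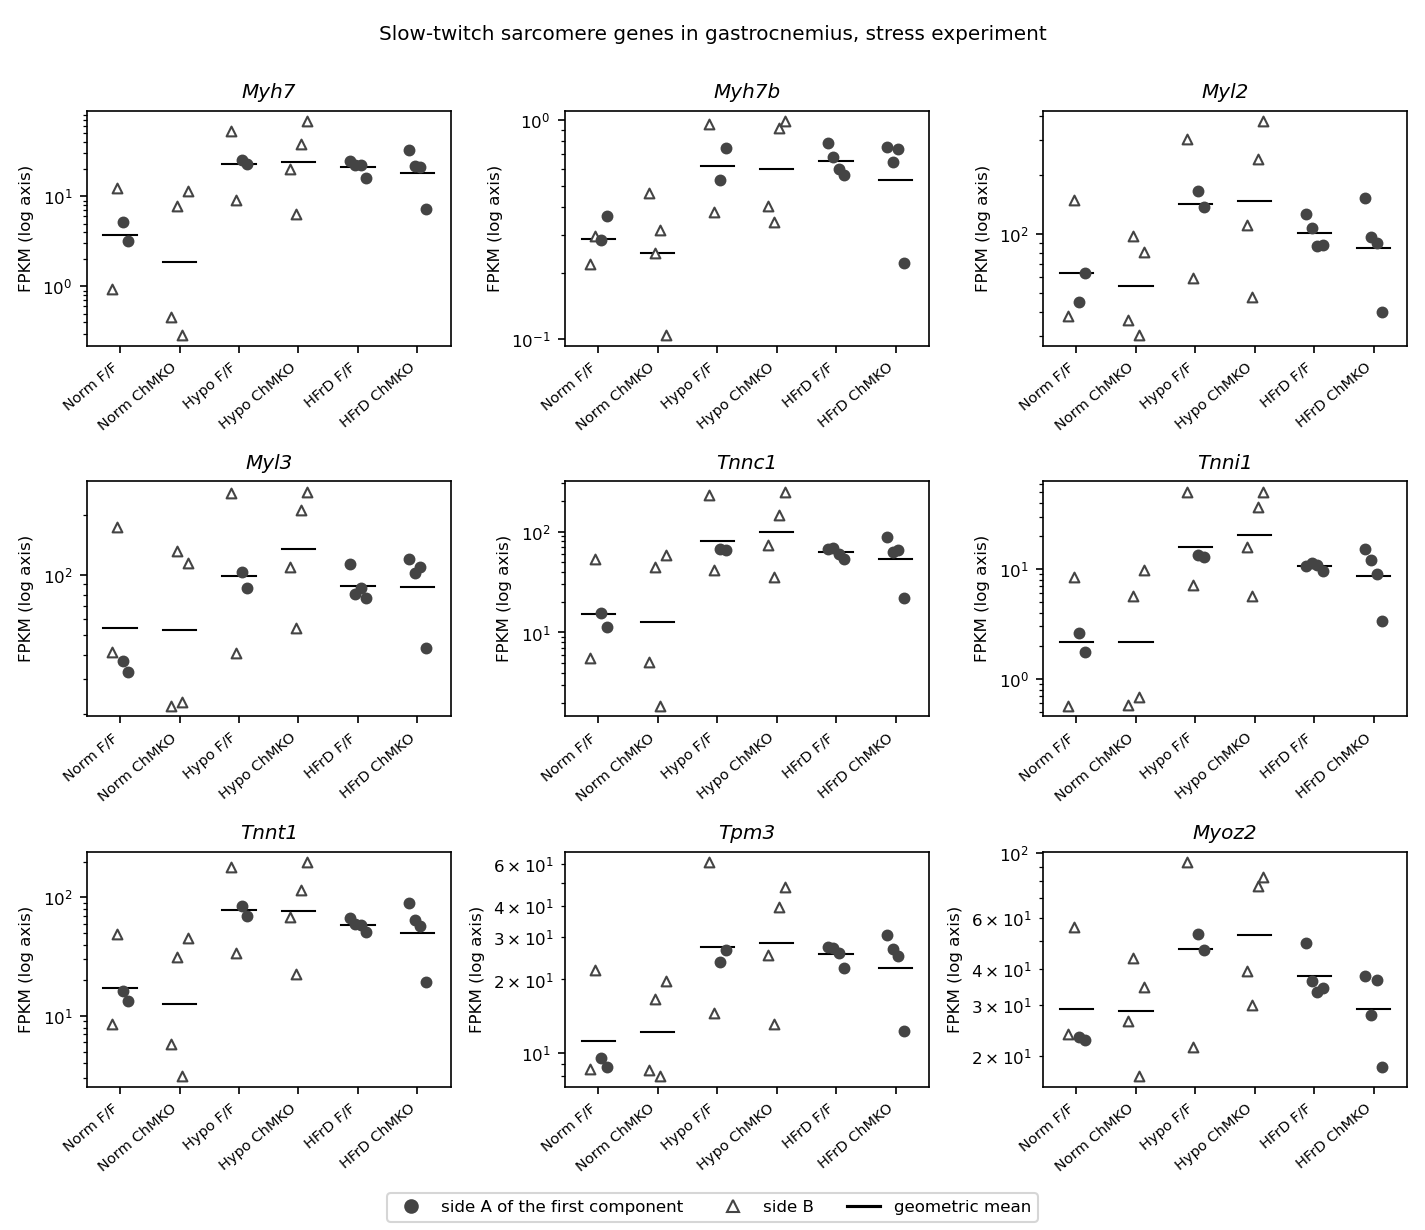
Expression of the 9 members in GC of the stress experiment, in FPKM on a log axis, 1 panel per member and 4 libraries per group, with filled circles for side A, open triangles for side B and a bar at the geometric mean. For Myh7 the F/F libraries lie between 0.930 and 12.3 FPKM in Norm, 9.13 and 53.7 in Hypo, and 16.1 and 24.6 in HFrD.

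The fructose diet was compared with the same Norm libraries, so the comparisons share their controls. In F/F on HFrD (mice m292, m294, m301 and m310), Myh7 was 24.6, 22.4, 22.1 and 16.1 FPKM, all above the highest Norm value of 12.3. Tnnc1 was 67.0, 68.5, 60.2 and 53.9 FPKM against a Norm maximum of 53.4, Tnni1 10.7, 11.4, 10.9 and 9.62 against 8.53, and Tnnt1 67.1, 59.8, 58.3 and 50.6 against 49.0. Tpm3 was 27.3, 26.9, 25.6 and 22.3 FPKM against 21.9. The HFrD libraries lay close together just above Norm m369 and well above the other Norm libraries. Groups did not overlap for these 5 of the 8 members tested, against 16.2% of all genes, nor for Myh7b (0.790, 0.681, 0.596 and 0.563 FPKM against 0.220 to 0.365). Myl2 at 86.2 to 127 FPKM, Myl3 at 76.9 to 114 and Myoz2 at 33.4 to 49.0 overlapped Norm through mouse m369, which gave 149, 175 and 55.7.

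No member was called on HFrD in F/F, where 0 genes were (0%, limma) and 2531 had an unadjusted p under 0.05. Myh7 gave a log2 difference of 2.12 ± 0.49 (SE, limma, unadjusted p = 0.00202), Tnnc1 1.94 ± 0.53, Tnni1 1.74 ± 0.45, Tnnt1 1.69 ± 0.43 and Tpm3 1.11 ± 0.26. These 5 of 8 met the study's criterion against 0.420% of all genes. Myl3 gave 0.69 ± 0.48, Myl2 0.65 ± 0.38 and Myoz2 0.37 ± 0.28. The median member differed by 1.40 against -0.10 over all genes. Within side A, 4 HFrD libraries against Norm m397 and m401, 6 of 9 members tested were called against 0.934% of genes. There Myh7 rose by 2.13 (adjusted p = 0.00465), Tnnc1 by 2.14, Tnnt1 by 1.93, Tnni1 by 1.89, Tpm3 by 1.39 and Myl3 by 1.32, while Myl2 gave 0.90, Myoz2 0.69 (adjusted p = 0.0676) and Myh7b 0.32. Leaving out the single Norm library m369 gave 5 called members, Myl3, Tnnc1, Tnni1, Tnnt1 and Tpm3, against 0.0751% of genes.

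In ChMKO on HFrD (mice m291, m293, m299 and m309), Myh7 was 33.2, 21.96, 21.5 and 7.23 FPKM against 0.289 to 11.5 in Norm. Mouse m309 was the lowest of the 4 for every member and lay inside the Norm range for Myh7. Myh7 rose by 2.36 ± 0.78 (limma, adjusted p = 0.0239), the only 1 of 8 members called, against 64.0% of all genes, and 2 met the study's criterion against 5.06%. Without HFrD m291, m293 or m299, or Norm m370 or m375, no member was called. Without HFrD m309, Norm m374 or Norm m380, 4, 3 and 5 members were called. Of all genes, 58.1% to 61.8% were called in these fits. Tnnt1 gave 1.85 ± 0.78 (adjusted p = 0.0613), Tpm3 0.82 ± 0.34 (adjusted p = 0.0571), Tnni1 1.41 (adjusted p = 0.0857) and Tnnc1 1.87 (adjusted p = 0.105). Myoz2 gave 0.01 (adjusted p = 0.978). The ChMKO groups lie wholly on opposite sides, so the diet and the side cannot be told apart there, and with side as a term 0 members were called, against 0.345% of genes. No member was called for a response to fructose that differed by genotype (0 of 8, and 0% of all genes; Myh7 interaction 0.24 ± 1.01, limma, unadjusted p = 0.818).

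Of the partner genes on HFrD in F/F, 0 were called, with Lmod2, the leiomodin of the thin filament, at 0.96 and Atp2a2 at 1.15 (limma, unadjusted p = 0.00908). Among the regulators, none of which was called, Ppargc1a, encoding the coactivator PGC-1alpha, gave 0.73 and the nuclear receptor Esrrg 0.66, and among the fast counterparts Myoz1 gave -0.46. In ChMKO, where group and side coincide, 2 partners were called higher (Atp2a2 1.23, Lmod2 1.21) and 2 lower (Ckmt2 -0.74, Smpx -0.39) of 14. Of 17 regulators 8 were called higher, Fnip1 by 2.07 and Ppargc1a by 1.67 among them, and 4 lower. Of 16 fast counterparts 1 was called higher (Myh4 0.33) and 9 lower, Casq1 at -0.85 and Mylpf at -0.86. With 64.0% of all genes called in this comparison, the shares of regulators and fast counterparts called were near that of all genes. On HFrD in ChMKO 8 of 9 fibroblast, 5 of 5 blood and 5 of 5 endothelial markers were called lower, where 4790 of all 10731 genes were (median log2 differences -1.63, -1.20 and -0.67, against -0.17 over all genes). Also called lower were all 3 leukocyte markers tested (median -0.59) and 4 of 5 embryonic muscle markers (median -0.56). In that comparison 1 embryonic, 1 nerve and 1 adipocyte marker were called higher. In F/F all 9 fibroblast markers (median log2 difference -0.85, 3 of them past the study's criterion) and all 5 blood markers (median -0.90, 2 past it) were lower on HFrD. So were all 5 endothelial markers (median -0.39) and all 3 leukocyte markers tested (median -0.68), and 5 of 6 adipocyte, 4 of 5 embryonic muscle and 3 of 4 nerve markers. None of these was called. The summed blood markers were 76.2 to 99.1 FPKM in HFrD F/F and 103 to 387 in Norm F/F, without overlap. The summed fibroblast markers ran from 282 to 701 FPKM in Norm F/F, 256 to 531 in Hypo F/F and 207 to 239 in HFrD F/F. The summed cardiac markers, nearly all of it cardiac actin Actc1, ran from 85.6 to 173 FPKM in Norm F/F, 94.9 to 1798 in Hypo F/F and 27.9 to 58.2 in HFrD F/F. The heart-defining Nppa, Nppb, Tnni3, Myl7, Mybpc3 and Nkx2-5 were under 0.5 FPKM in the mean of every stress group. The part of fibroblast, blood, endothelial, leukocyte, adipocyte and nerve content in the members' differences was not tested.

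Set against each other, HFrD and Hypo gave Myh7 at -0.14 ± 0.42 in F/F (limma, unadjusted p = 0.752), with 0 of 9 members called against 0.264% of genes. Within side A, with Hypo m360 and m361, Myh7 gave -0.18 ± 0.15 and 0 of 9 were called, against 5.32% of genes. In ChMKO Myh7 gave -0.39 ± 0.62, and 1 of 9, Myoz2, was called, at -0.83 ± 0.32 (adjusted p = 0.0493), against 53.5% of genes. The Myoz2 call was lost with a pseudocount of 0.1, without a filter, with a filter of 5 FPKM, on rescaling, in one fit, with side as a term and without any 1 of 5 libraries (HFrD m293, m299 or m309, Hypo m340 or m345), while 5 members were called without Hypo m333. Those ChMKO groups also lie on opposite sides.

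Within each condition no member was called between genotypes, with 0 of 8 tested in Norm (against 0.00922% of all genes), 0 of 9 in Hypo (0.00941%) and 0 of 9 in HFrD (0.0190%). Myh7 differed by -0.41 ± 0.85 in Norm, 0.07 ± 0.68 in Hypo and -0.18 ± 0.36 in HFrD (ChMKO minus F/F, SE, limma, unadjusted p = 0.641, 0.919 and 0.636). The lowest p in HFrD was that of Myoz2, at -0.37 ± 0.21 (adjusted p = 0.783). A Myh7 difference of 1 log2 unit in either direction lies within 2 SE of the estimate in Norm and in Hypo. In Norm and Hypo all 4 ChMKO libraries lie on side B and the F/F libraries on both sides, so genotype and side are partly confounded there. Within side B, 4 ChMKO against 2 F/F libraries, Myh7 differed by -0.41 ± 1.16 in Norm and 0.12 ± 0.81 in Hypo. There 0 of 8 members in Norm and 0 of 9 in Hypo were called, against 0.00927% and 0.00951% of genes.

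After injection of AAV, 2 control libraries set the ends of the range. AAV-CON libraries 1, 3, 4, 7 and 8 gave 3.71, 24.2, 0.042, 54.0 and 20.4 FPKM for Myh7 and 27.2, 62.2, 0.234, 127 and 43.3 for Myl2. AAV-ChREBP libraries 1, 3, 4, 7 and 8 gave 1.38, 1.27, 13.3, 37.1 and 17.5 FPKM for Myh7 and 4.50, 12.2, 27.9, 69.6 and 34.6 for Myl2. AAV-CON 4 was the lowest and AAV-CON 7 the highest library for all 8 members, with a range of 1286 times for Myh7 and 541 times for Myl2. Tnnc1 was listed at 0 in AAV-CON 4 and at 42.1 FPKM in AAV-CON 7.

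In AAV-CON 4 Myl3 was 2.50 and Myoz2 2.44 FPKM, so the light chain and Z-disc genes were low there as well. Across the other 9 AAV libraries Myl3 was 9.48 to 127 and Myoz2 6.11 to 37.4 FPKM. Although Mlxipl itself rose by 2.74 (limma, adjusted p = 2.46e-06), no member was called (0 of 7 tested, against 0.00907% of genes). Myh7 gave -0.28 ± 1.07 (SE, limma, unadjusted p = 0.796), and the lowest p was that of Myoz2, at -0.48 ± 0.59 (unadjusted p = 0.424).

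In C2C12 cells at day 7 the members did not keep the proportions of soleus. Tnnc1 was 259, 251, 234 and 225 FPKM in vector cultures, Tpm3 161, 161, 156 and 160, Tnni1 111, 105, 104 and 109, and Tnnt1 59.1, 59.97, 67.2 and 57.9. Myh7 was only 0.83, 0.75, 0.70 and 0.81 FPKM, Myl2 2.40 to 3.63, and Myl3 was listed at 0 in 3 of 4 cultures and at 0.09 in the fourth. The troponins and Tpm3 were thus present at high levels with little of the slow motor or its light chains.

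With ChREBP overexpression 5 of 7 members tested rose, against 30.5% of all genes called. Tnni1 was 146, 150, 153 and 157 FPKM and rose by 0.50 ± 0.03 (SE, limma, adjusted p = 1.31e-06). Tnnt1 was 88.5, 90.1, 86.5 and 82.7 FPKM and rose by 0.50 ± 0.05 (adjusted p = 1.29e-05). Tnnc1 was 311, 343, 326 and 334 FPKM and rose by 0.44 ± 0.05 (adjusted p = 4.32e-05). The values of all 3 troponins lay above every vector culture. Myoz2 was 8.44, 10.6, 8.03 and 9.47 FPKM against 6.01 to 7.04 and rose by 0.44 ± 0.08 (adjusted p = 0.00134). Myh7 was 1.16, 1.21, 1.10 and 1.05 FPKM and rose by 0.27 ± 0.06 (adjusted p = 0.00776). Tpm3, at 153 to 161 FPKM, gave -0.02 ± 0.03 (adjusted p = 0.597), and Myl2 gave -0.17 ± 0.14 (adjusted p = 0.382). Groups did not overlap for the 5 called members, against 31.3% of all genes, nor for Myh7b, which was below the filter (0.172 ± 0.0206 against 0.307 ± 0.00957 FPKM, SD, n = 4).

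**Figure D5:**
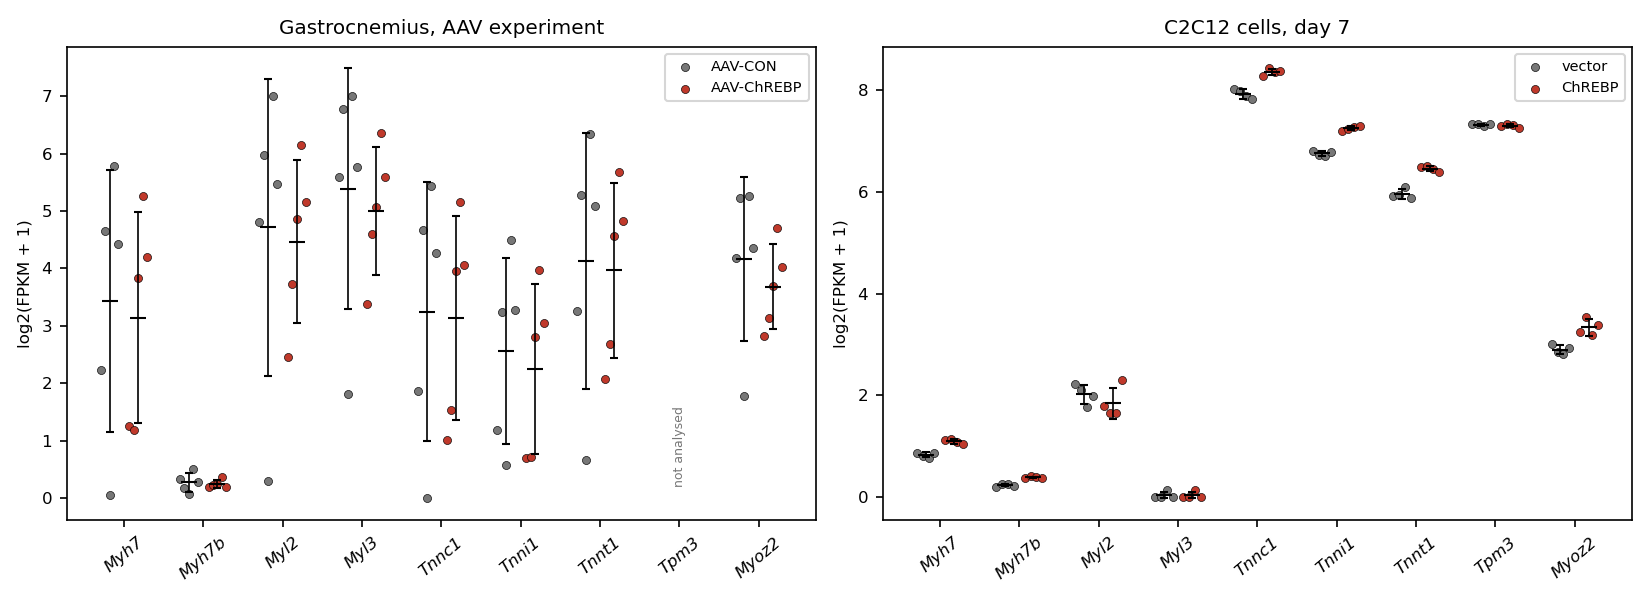
Members in AAV-injected GC (5 libraries per group) and in C2C12 cultures (4 per group) as log2(FPKM + 1), with 1 point per library and the mean ± SD, Tpm3 being not analysed in the AAV set. In the AAV set the groups overlap for each member shown and AAV-CON 4 lies lowest, while in C2C12 the ChREBP cultures lie above the vector cultures for Tnni1, Tnnt1, Tnnc1, Myoz2, Myh7 and Myh7b.

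In the same cultures 7 of 12 partner genes rose and 2 fell, with the LIM protein gene Fhl1 at 0.50, Casq2 at 0.43, and Atp2a2 (-0.17) and the light chain gene Myl6b (-0.18) as the lower ones. Of 14 fast counterparts 10 rose and 2 fell, with Mylpf at 0.72 and the fast troponin T gene Tnnt3 at 0.49, so fast genes were called higher as well as slow ones. The lower ones were the adult fast heavy chains Myh1 (-0.50) and Myh4 (-0.32). By qRT-PCR at other days of differentiation, the paper reports higher Myh4 in the ChREBP cells. With 30.5% of all genes called, 8 of 13 regulators rose, with Mef2c at 0.49 and Tbx15 at 0.31. Of 8 embryonic muscle markers 5 rose and 1 fell, cardiac actin Actc1 rose by 1.03 (adjusted p = 3.45e-08), and 5 of 7 fibroblast markers fell. The median member differed by 0.44 against 0.00 over all genes. The paper describes a ChREBP-overexpressing cell line and no further lines made independently. The p-values are thus taken to cover the spread between cultures and not that between independently made lines.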

How the data were processed

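Enriched mRNA was sequenced with the NEBNext Ultra kit, which does not mark strand, on NovaSeq. Per the labels and the study's methods, the authors trimmed reads with fastp 0.18.0 and aligned them with HISAT2 2.1.0, and the submitters' processing notes also name Bowtie2 2.2.8, StringTie 1.3.1 and RSEM without a role. The authors deposited FPKM values (whole-gene expression per sample) in 4 tables normalized separately, so tests stayed within a table. The notes name GRCm39, although gene positions deposited for chow-fed muscles are those of GRCm38. The AAV and C2C12 headers name no unit, and the values were read as FPKM. A gene length column and other descriptive columns were deposited too. The authors' own comparison columns in the AAV table (log2 fold changes, p-values and false discovery rates) were not used, and 0 sample columns were left unmapped.

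From the deposited FPKM, log2(FPKM + 1) was tested in limma 3.58.1 (R 4.3.3, statmod 1.5.0) on the groups compared, keeping genes whose mean over the compared libraries reached 0.5 FPKM, with Benjamini-Hochberg adjustment over all genes tested and a threshold of 0.05. Fold changes are on that log2 scale. In the stress table whole reads could be recovered from the FPKM values (14473170 to 23460515 per library). Steps in the low values gave about 16400000 to 19800000 reads for chow and 15600000 to 20100000 for AAV libraries, and the depth of C2C12 libraries is unknown. Library pairs of a group correlated at 0.942 to 0.998 across genes and 0 pairs were identical. The code was tested on simulated data.

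The named genes are the members, the 2 lowest p of each list, and the non-members most like the members' mean. List genes that went against their list were named after their values were seen. The members, the lists and the division of the members into groups were chosen with earlier results of these data known. Correlations used 100000 resamples, or all orders of 8 libraries. AAV libraries of the same number deviated together (r of deviations 0.211 to 0.489) and were treated as pairs in a further fit. Soleus and GC libraries share mouse numbers and were read as coming from the same mice. Deviations of same-numbered libraries correlated at r of -0.017 to 0.322 in F/F and 0.021 to 0.049 in ChMKO. For 1 F/F soleus library the title carries a different mouse number than its column, and the column was used. Alternatives were a pseudocount of 0.1, no filter or one at 5 FPKM, rescaled libraries, all groups in one fit, voom on recovered reads, replicate blocks, each library left out and, added after the data were seen, side as a term or libraries of 1 side only.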

Additional observations from a re-analysis of the deposited data

Results flagged for a closer look

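In each group of 4 or 5 libraries, the gap between the highest or lowest value and its nearest neighbour was compared with the group's whole range. Gap and range were taken on log2(FPKM + 1), for 124 combinations of member and group. In 10 of these a library stood apart by Dixon's 95% value (0.829 for 4 libraries, 0.71 for 5), and chance alone flags about 1 in 20. Myl3 held most of them. In chow-fed ChMKO GC, mouse 72 had 182 FPKM of Myl3 against 29.0 to 48.1 in the other 4. On HFrD, ChMKO m309 had 43.0 FPKM of Myl3 against 102 to 120. In Norm F/F, m369 had 175 FPKM of Myl3 against 32.7 to 41.1, 21.9 of Tpm3 against 8.52 to 9.52, and 55.7 of Myoz2 against 22.7 to 24.0. This Norm library was the highest F/F Norm library for all members but Myh7b. AAV-CON 4 had 2.50 FPKM of Myl3 against 47.4 to 127, and AAV-ChREBP 7 had 0.302 of Myh7b against 0.145 to 0.185. In C2C12, Myl3 was listed at 0.09 FPKM in culture 3 of each arm and at 0 in the others, and Tpm3 was 156 FPKM in vector culture 3 against 160 to 161.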

How the results depend on the processing

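The 9 calls between soleus and GC in each genotype, and the absence of calls between genotypes and after AAV, held under all alternatives run, and the cause of the changes below was not tested. For Hypo against Norm in F/F, libraries of side A gave 8 called members (0.748% of all genes) and 8 past the study's criterion, and side B gave 0. In ChMKO, side as a term gave 4, against 6.99% of all genes. For HFrD against Norm, side A gave 6 called in F/F (0.934%). In ChMKO rescaled libraries gave 2 (53.8% of all genes called), one fit 2 (53.7%), voom 4 (64.4%) and the side term 0 (0.345%), and the criterion was met by 1 with no filter and by 4 with voom. The single HFrD against Hypo call in ChMKO fell to 0 with a pseudocount of 0.1, no filter, a filter of 5 FPKM, rescaling, one fit or the side term, where 53.3%, 34.4%, 64.7%, 51.6%, 53.6% and 1.29% of all genes were called. Myh7 changed sign in Hypo between genotypes on rescaling (-0.035) and after AAV with a pseudocount of 0.1 (0.058). The replicate block left 9 soleus calls in each genotype, 0 AAV calls (Myh7 -0.28 ± 0.77) and 5 C2C12 calls, where same-numbered cultures did not deviate together (r -0.0938 to 0.176), and it changed no other call. The fit of muscle by genotype without the block gave 0.

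Leaving out each library in turn, called members ranged from 0 to 5 for HFrD against Norm in F/F (5 without Norm m369, against 0.0751% of all genes), from 0 to 5 in ChMKO (0 without HFrD m291, m293 or m299 or Norm m370 or m375, 3 without Norm m374, 4 without HFrD m309, 5 without Norm m380, with 58.1% to 61.8% of all genes called in these fits), from 0 to 5 for HFrD against Hypo in ChMKO (0 without HFrD m293, m299 or m309 or Hypo m340 or m345, 5 without Hypo m333, with 44.9% to 54.3% of all genes called) and from 5 to 6 in C2C12 (6 without ChREBP culture 4, with Myl2 called). Members past the study's criterion ranged from 4 to 7 for Hypo against Norm in F/F and 3 to 8 in ChMKO (3 without Hypo m345), 4 to 7 for HFrD against Norm in F/F and 1 to 5 in ChMKO (1 without the libraries that gave 0 calls, 4 without Norm m374 or HFrD m309, 5 without Norm m380), and 0 to 6 for HFrD against Hypo in ChMKO (6 without Hypo m333). Joint relations ranged from 34 to 38 of 39. Myh7 between genotypes ranged from -0.086 to 0.0079 in soleus, -0.98 to 0.11 in Norm, -0.41 to 0.67 in Hypo, -0.45 to 0.24 in HFrD and -1.13 to 0.30 after AAV, and its interaction from -0.037 to 1.08 for hypoxia and from -0.28 to 0.81 for fructose. Myh7 ranged from -0.56 to 0.25 for HFrD against Hypo in F/F and -0.98 to 0.10 in ChMKO, and Myoz2 from -0.23 to 0.22 for HFrD against Norm in ChMKO.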
